A study of Homo sapiens with 8 samples.

Results

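The 10 genes described here are TEAD1, TEAD2, TEAD3, TEAD4, YAP1, WWTR1, CCN1, CCN2, ANKRD1 and AMOTL2, taken by name from 20162 protein-coding genes of the annotation. Each gene was read in 8 peak lists of CUT&Tag, an assay in which a transposase tethered to an antibody cuts and tags the DNA around the antigen. The antigens were histone H3 succinylated at lysine 23 (H3K23su) and histone H3 acetylated at lysine 27 (H3K27ac), a mark of active promoters and enhancers. HCT15-Pa is the parental line of HCT15, an established human colorectal cancer line, and its libraries are labelled as treated with DMSO. HCT15-FR resists 5-fluorouracil (5-FU), a chemotherapy drug that resembles uracil, and its libraries are labelled as treated with 5-FU at 20 µg/mL. Per the methods of the study, HCT15-FR cells were kept in the drug and then moved to drug-free medium before experiments, beside HCT15-Pa cells. Each line and mark has 2 libraries, and nothing says that these came from separate cultures, so the p values below measure the spread between libraries, which may be technical. Whether HCT15-FR is 1 clone is not given in the sources used here.

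The TEAD proteins are transcription factors that bind DNA through a shared TEA domain but activate little by themselves. YAP1 and TAZ, the product of WWTR1, are their coactivators. The Hippo kinases phosphorylate both coactivators, which holds them in the cytoplasm, and when the kinases are off YAP1 and TAZ enter the nucleus and join TEAD at promoters and enhancers. CCN1 (CYR61) and CCN2 (CTGF), secreted matricellular proteins, ANKRD1, an ankyrin repeat protein, and AMOTL2, an angiomotin family protein that binds YAP1, are among the best known target genes of this complex. In the intestine YAP1 and TAZ are known for their part in epithelial regeneration and in colorectal tumors.

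The sequences around these genes hold the core that TEAD proteins bind, CATTCC, read here on both strands, where the other strand reads GGAATG. In the 300 bases upstream of the transcription start site (TSS), 8 of the 10 genes held at least 1 core, against 12.2% of all protein-coding genes. Of 17 further target genes described below 6 held one (35.3%), and of 19 Hippo kinases and regulators 2 did (10.5%). CCN2 held 3 and ANKRD1 held 2, and 1.01% of all protein-coding genes held 2 or more. TEAD2 and TEAD3 held none in these 300 bases. None of the 10 held the AP-1 site TGACTCA there, against 3.59% of all protein-coding genes. A match is a description of letters and not evidence of binding, and the target genes among the 10 are widely studied as TEAD targets. The 230 bases upstream of the TSS of 3 target genes are shown first, since each holds at least 1 core beside the TSS. At CCN1 and ANKRD1 a peak of each mark overlapped them in every library. At CCN2 an H3K27ac peak overlapped them in all 4 libraries, while an H3K23su peak did so in each HCT15-FR library but not in HCT15-Pa, whose nearest H3K23su peaks ended 454 and 75 bp away inside the gene. They are followed by 2 stretches of the same length from regions with peaks in HCT15-FR only, 1 upstream of CCN2 and 1 in an intron of WWTR1. All are hg19 sequence on the strand of the gene, with TEAD cores in capitals.
CCN1, chr1:86046214-86046443, plus strand: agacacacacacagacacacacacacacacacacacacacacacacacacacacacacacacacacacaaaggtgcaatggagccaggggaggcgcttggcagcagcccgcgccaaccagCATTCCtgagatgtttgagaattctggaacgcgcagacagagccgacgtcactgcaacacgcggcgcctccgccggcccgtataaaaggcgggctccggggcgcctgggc
CCN2, chr6:132272513-132272742, minus strand: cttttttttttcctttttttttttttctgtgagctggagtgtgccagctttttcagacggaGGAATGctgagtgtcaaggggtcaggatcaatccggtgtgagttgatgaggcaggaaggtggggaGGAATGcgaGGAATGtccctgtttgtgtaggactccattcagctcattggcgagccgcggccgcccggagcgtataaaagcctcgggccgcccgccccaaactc
ANKRD1, chr10:92680845-92681074, minus strand: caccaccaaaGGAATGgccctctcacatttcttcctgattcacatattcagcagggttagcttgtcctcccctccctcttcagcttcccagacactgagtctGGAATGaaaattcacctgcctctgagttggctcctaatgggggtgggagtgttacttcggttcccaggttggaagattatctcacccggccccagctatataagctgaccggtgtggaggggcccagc
CCN2 upstream FR-only region, chr6:132279690-132279919, minus strand: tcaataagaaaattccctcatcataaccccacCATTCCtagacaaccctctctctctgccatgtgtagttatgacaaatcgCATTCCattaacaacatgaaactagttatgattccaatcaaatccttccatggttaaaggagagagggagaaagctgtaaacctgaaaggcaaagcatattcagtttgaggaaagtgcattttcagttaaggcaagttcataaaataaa
WWTR1 intron FR-only region, chr3:149266047-149266276, minus strand: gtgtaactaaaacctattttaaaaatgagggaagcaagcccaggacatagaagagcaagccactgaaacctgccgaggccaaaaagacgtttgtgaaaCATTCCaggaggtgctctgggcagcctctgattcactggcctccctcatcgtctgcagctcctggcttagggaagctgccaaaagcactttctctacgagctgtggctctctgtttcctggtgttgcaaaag

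The lists give positions and a score but no read counts, so the depth of each library is unknown, and a missing peak was only not detectable at the authors' threshold. They held between 65364 and 76676 peaks. For H3K23su the HCT15-Pa peaks covered 33.5 and 33.0 Mb and the HCT15-FR peaks 40.0 and 39.4 Mb, and for H3K27ac they covered 39.5 and 38.8 Mb against 46.3 and 46.6 Mb. The HCT15-FR peaks were also wider in each mark, with mean widths from 581 to 627 bp against 505 to 550 bp. Of 8 markers of colon epithelium, 6 had a TSS peak in all 8 libraries, KRT20 in 1 H3K23su and 2 H3K27ac libraries, and CDX2 in 1 H3K23su library and all 4 of H3K27ac. Of 5 markers of blood, fibroblasts and endothelium, 4 had none in any library and CDH5 had 1 in each mark.

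All 10 genes had at least 1 peak within 2 kb of the TSS in each of the 8 libraries, so presence at the TSS did not separate the lines for any of them. Over all protein-coding genes, 53.9% had a TSS peak in all 8 libraries. By mark, 54.7% had one in all 4 H3K23su libraries and 59.0% in all 4 H3K27ac libraries. Peaks present in both HCT15-FR libraries only were found at 1.86% of TSSs for H3K23su and 1.42% for H3K27ac, and in both HCT15-Pa libraries only at 1.72% and 2.19%. None of the 10 genes was in these classes. The 10 TSSs differed in how strong their peaks were, measured as the percentile of the best TSS peak's score in its own list. The H3K27ac peak at YAP1 was at percentiles 85.8 and 86.7 in HCT15-Pa and 93.6 and 96.8 in HCT15-FR. At WWTR1 it was at 79.8 and 81.5 against 91.3 and 94.6. At ANKRD1 it was at 72.9 and 77.9 against 88.3 and 87.3. In these 3 genes both HCT15-FR libraries lay above both HCT15-Pa libraries. In 3 others both HCT15-FR libraries lay below. The H3K27ac TSS peak was at 61.3 and 61.7 against 60.8 and 40.5 at CCN2, at 91.4 and 92.2 against 86.7 and 77.3 at TEAD1, and at 80.0 and 83.7 against 77.8 and 73.3 at TEAD3. At TEAD1 the best peak of HCT15-FR library 2 was another one, 1.9 kb downstream of the TSS. At TEAD3 H3K27ac peaks within 2 kb of the TSS covered 1134 and 1479 bp against 2345 and 1916 bp, so coverage there was higher in HCT15-FR. At CCN2 and TEAD1 the lines overlapped in that coverage, and so they did at YAP1 and WWTR1. At ANKRD1 it was higher in HCT15-FR, 383 and 461 bp against 632 and 730 bp. Of protein-coding genes with a TSS peak in all 4 H3K27ac libraries, 22.1% had both HCT15-FR libraries above and 28.2% below, so the 10 genes were near the background in each direction. The H3K23su TSS peak of ANKRD1 was at 61.0 and 64.9 against 82.9 and 74.5, while that of YAP1 was at 88.7 and 87.8 against 74.6 and 79.5 and that of CCN1 at 73.8 and 91.3 against 57.8 and 66.4. In the other 7 genes the lines overlapped in the H3K23su percentile. Of genes with a TSS peak in all 4 H3K23su libraries, 28.3% had both HCT15-FR libraries above and 15.6% below. Coverage within 2 kb of the TSS did order some of these 7 genes. It was 815 and 888 bp against 1518 and 1311 bp at CCN2, and also higher in HCT15-FR at AMOTL2, TEAD4 and WWTR1. At TEAD1 it was lower, 996 and 893 bp against 714 and 510 bp, and at TEAD2 and TEAD3 the lines overlapped. This order was not counted over all genes. By percentile, YAP1 thus had the order of its lines turned between the marks. Its coverage within 2 kb of the TSS did not turn. H3K23su covered 2175 and 1829 bp there against 2684 and 2414 bp, higher in HCT15-FR, while H3K27ac coverage overlapped. At ANKRD1 and CCN1 the lines overlapped in H3K23su coverage. These percentiles and TSS coverages were not tested.

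**Figure D1:**
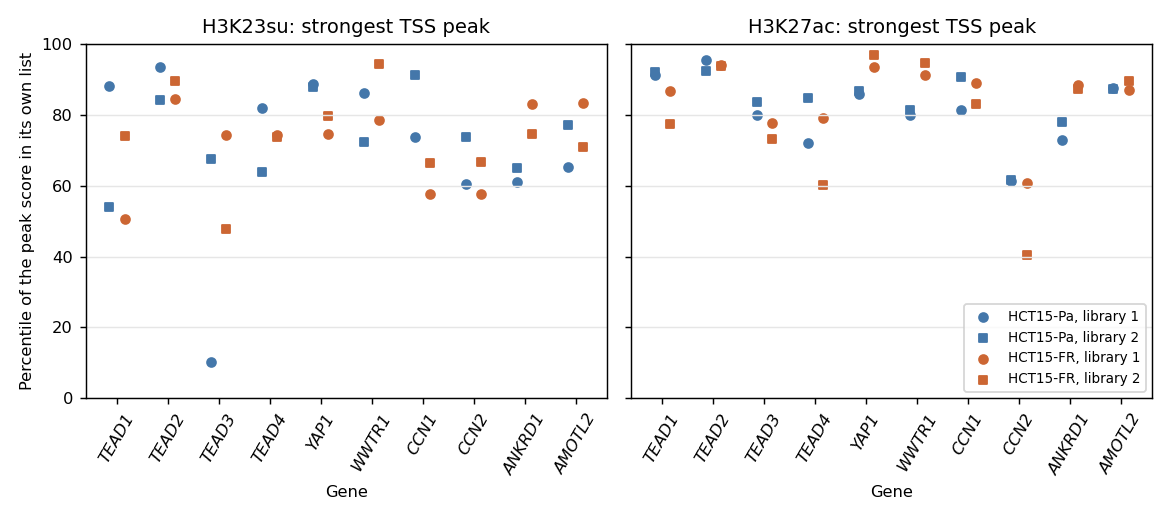
Percentile of the score of the strongest peak within 2 kb of the TSS, in its own list, for the 10 genes (vertical axis, 0 to 100) in H3K23su (left) and H3K27ac (right). Circles are library 1 and squares library 2, blue for HCT15-Pa and orange for HCT15-FR. In H3K27ac the HCT15-FR points of YAP1, WWTR1 and ANKRD1 lie above the HCT15-Pa points, and those of CCN2, TEAD1 and TEAD3 below them.

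To ask whether the marks around these genes were wider or narrower in the resistant line, the length covered by peaks was summed over each gene body and 50 kb either side, and HCT15-FR was compared with HCT15-Pa in limma over all protein-coding genes. In H3K23su WWTR1, CCN2 and TEAD4 rose and TEAD1 fell, and in H3K27ac WWTR1, ANKRD1 and YAP1 rose and AMOTL2 fell. WWTR1 alone was called in both marks, and its H3K27ac change was the largest of the 10. These are 3 higher and 1 lower of 10 in each mark, all 10 having passed the filter on low values. Over all genes tested 20.6% were called higher and 3.65% lower in H3K23su, and 19.6% and 4.10% in H3K27ac, so the number of higher calls was near the background. Without regard to the test, both HCT15-FR libraries covered more than both HCT15-Pa libraries in 8 of the 10 genes in H3K23su and in 6 in H3K27ac, against 53.0% and 51.4% of all genes. They covered less in 1 gene and 2 genes, against 13.5% and 14.0% of all genes. The median log2 change of the 10 genes was 0.28 in H3K23su and 0.41 in H3K27ac, beside 0.24 and 0.18 over all genes tested.

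The HCT15-FR lists also had the larger total length, and each change was also computed with covered length divided by the total of its library. This moved the median of all genes to 0.02 and -0.04. The calls over all genes then divided into 778 higher and 734 lower in H3K23su, against 3760 and 668 without scaling. In H3K27ac they divided into 1178 higher and 1238 lower, against 3697 and 775. Of the 10 genes, WWTR1 in H3K27ac alone was called higher after scaling. TEAD1 in H3K23su and TEAD2 and AMOTL2 in H3K27ac were called lower. The changes of TEAD2, TEAD3 and ANKRD1 in H3K23su, none of them called, turned to -0.04, -0.00217 and -0.05 after scaling. Summed over the windows of all 10 genes, H3K23su peaks covered 54.7 and 56.1 kb in HCT15-Pa and 64.0 and 65.0 kb in HCT15-FR, a ratio of 1.16. H3K27ac peaks covered 62.7 and 61.1 kb against 75.7 and 75.9 kb, a ratio of 1.22. Both had p = 0.33 in a two-sided exact permutation test, the smallest that 2 libraries against 2 can give, and the H3K23su difference of 9.04 kb turned to -1.54 kb after scaling.

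**Figure D2:**
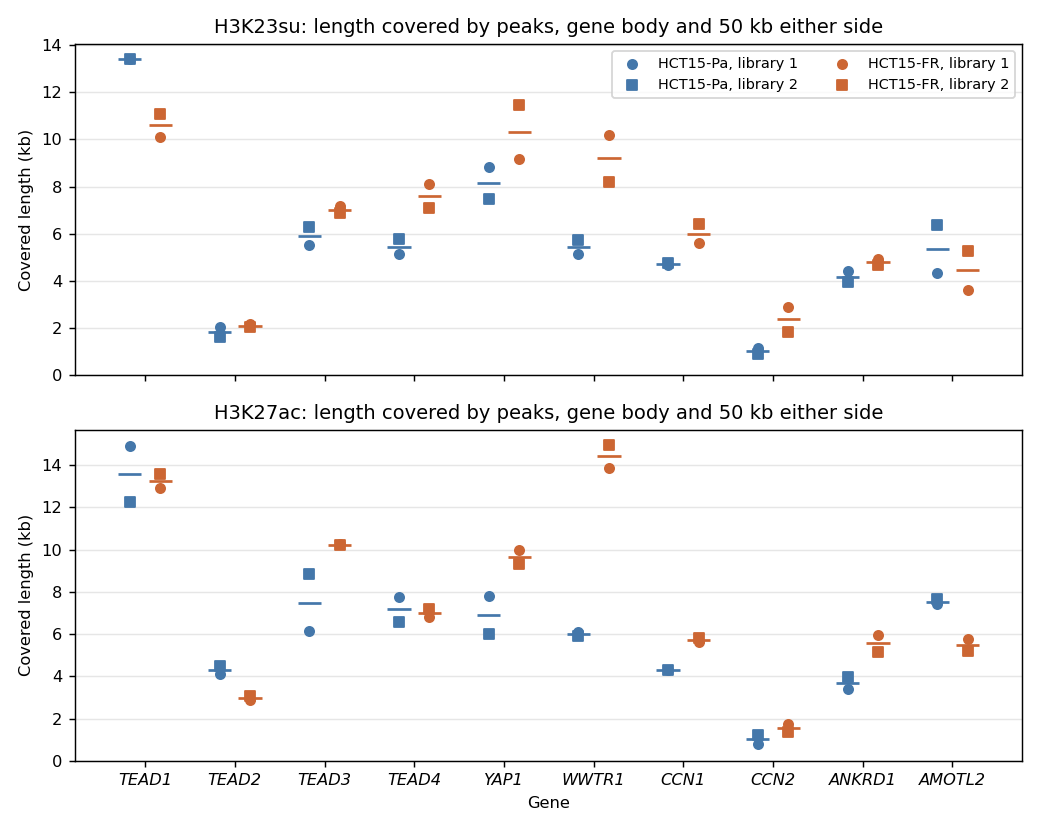
Length covered by peaks (kb, vertical axis from 0) in the gene body and 50 kb either side of the 10 genes, in H3K23su (top) and H3K27ac (bottom). Each point is 1 library, circles for library 1 and squares for library 2, and each bar is the mean of the 2 libraries of a line. WWTR1 in H3K27ac stands out, with 13.9 and 15 kb in HCT15-FR against 6.09 and 5.92 kb in HCT15-Pa.

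WWTR1 encodes TAZ and lies on chr3:149235022-149454501 on the minus strand, with its canonical TSS at 149375812 inside the annotated gene, because longer transcripts start further upstream. In H3K27ac its window was covered over 6.09 and 5.92 kb in HCT15-Pa and 13.9 and 15 kb in HCT15-FR. The lines did not overlap and were 2.40-fold apart, a log2 change of 1.2 ± 0.09 (SE; limma adjusted p = 0.00105), larger than that of 98.2% of genes tested. In H3K23su it was covered over 5.13 and 5.72 kb against 10.2 and 8.21 kb. The log2 change was 0.71 ± 0.14 (adjusted p = 0.0168), but scaling gave 0.47 (adjusted p = 0.0788) and leaving out HCT15-FR library 1 gave 0.56 (adjusted p = 0.0690). The stronger 50% of each list gave 0.21 (adjusted p = 0.531), so no call was made among the stronger peaks. The H3K27ac change kept its call in all 13 alternative settings, with log2 values from 0.96 to 1.34. The gain was in the number of peaks. H3K27ac peaks in the window numbered 11 and 9 in HCT15-Pa and 23 and 25 in HCT15-FR, with 7 and 5 against 17 and 19 of them in the gene body outside the TSS. H3K23su peaks numbered 9 and 12 against 21 and 16. The covered length per H3K27ac peak was 554 and 657 bp against 603 and 599 bp, so the lines overlapped in it. The window also holds COMMD2, TM4SF4 and ANKUB1.

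YAP1, the other coactivator, lies on chr11:101981178-102104155 on the plus strand, and its window also holds CFAP300. Its H3K27ac peaks covered 7.79 and 6.0 kb in HCT15-Pa and 9.96 and 9.29 kb in HCT15-FR. Both HCT15-FR libraries were higher, with a log2 change of 0.46 ± 0.13 (adjusted p = 0.0412). Scaling lowered this to 0.23 (adjusted p = 0.271), and the call was lost without HCT15-Pa library 2 or either HCT15-FR library (adjusted p from 0.0899 to 0.15), with a log2 change of 0.29 without HCT15-Pa library 2. H3K23su covered 8.84 and 7.46 kb against 9.17 and 11.5 kb, with a log2 change of 0.32 ± 0.14 that did not pass (adjusted p = 0.136). Its H3K23su peaks numbered 18 and 18 in HCT15-Pa and 14 and 18 in HCT15-FR, and the covered length per peak was 491 and 414 bp against 655 and 637 bp. In YAP1 the HCT15-FR H3K23su peaks were therefore no more numerous but wider, while those of the whole lists were both wider and more numerous.

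**Figure D3:**
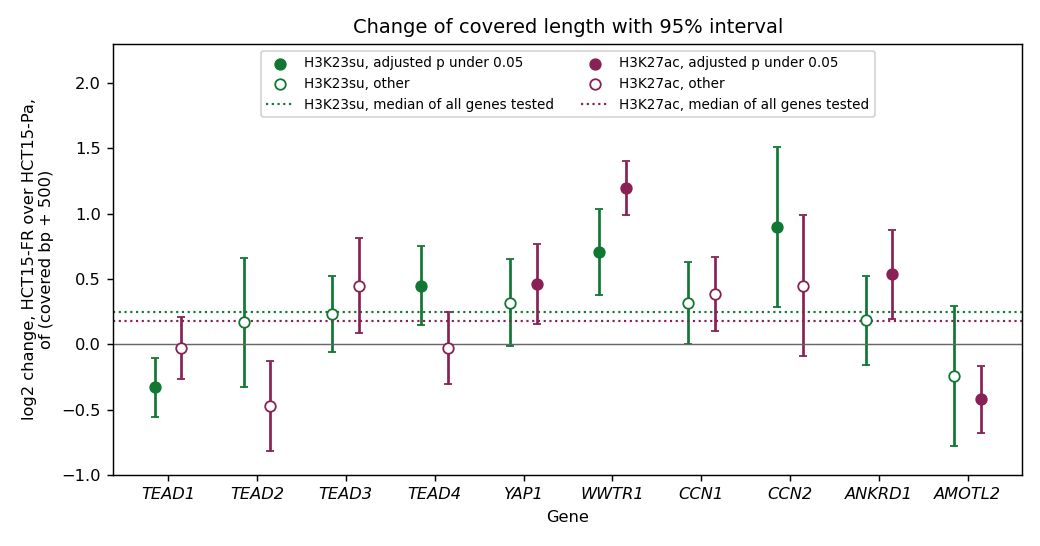
Log2 change of covered length, HCT15-FR over HCT15-Pa with 500 bp added, for the 10 genes, green for H3K23su and purple for H3K27ac. Bars are 95% intervals from limma, filled points have an adjusted p under 0.05, and dotted lines mark the median of all genes tested, 0.24 for H3K23su and 0.18 for H3K27ac. WWTR1 in H3K27ac, at 1.2, is the highest point.

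Of the 4 TEAD factors, TEAD1 had the most peaks and covered less in HCT15-FR in H3K23su. TEAD1 lies on chr11:12695968-12966284 on the plus strand. Its H3K23su peaks covered 13.4 kb in each HCT15-Pa library and 10.1 and 11.1 kb in HCT15-FR. The log2 change was -0.33 ± 0.10 (adjusted p = 0.0467), against a median of 0.24 over all genes, and scaling gave -0.57 (adjusted p = 0.0183). The unscaled call was lost when any 1 of the 4 libraries was left out (adjusted p from 0.0802 to 0.237), with log2 values from -0.39 to -0.27. In H3K27ac TEAD1 was covered over 14.9 and 12.2 kb against 12.9 and 13.6 kb. The lines overlapped, and the log2 change was -0.03 with a 95% interval from -0.27 to 0.21.

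TEAD4 lies on chr12:3068496-3149842 on the plus strand. H3K23su covered 5.13 and 5.76 kb in HCT15-Pa and 8.13 and 7.11 kb in HCT15-FR, a log2 change of 0.45 ± 0.13 (adjusted p = 0.0453). Scaling gave 0.21 (adjusted p = 0.335), and the call was also lost without HCT15-Pa library 1, HCT15-FR library 1 or HCT15-FR library 2 (adjusted p from 0.0749 to 0.242). H3K27ac covered 7.76 and 6.57 kb against 6.80 and 7.20 kb, so the lines overlapped, with a log2 change of -0.03 ± 0.12. The window of TEAD4 also holds TULP3 and TSPAN9.

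TEAD2 lies on chr19:49843852-49865714 on the minus strand, among other genes that include CD37 and DKKL1. H3K27ac covered 4.10 and 4.51 kb in HCT15-Pa and 2.87 and 3.05 kb in HCT15-FR. Both HCT15-FR libraries were lower, at a log2 change of -0.47 ± 0.15 that just missed the threshold (adjusted p = 0.0563) and passed it after scaling (-0.69, adjusted p = 0.0261). Within 2 kb of the TSS H3K27ac covered 1802 and 1921 bp against 1782 and 1922 bp, so the lines overlapped there. H3K27ac peaks downstream of the gene numbered 3 and 4 in HCT15-Pa and 1 and 2 in HCT15-FR. H3K23su covered 2.04 and 1.61 kb against 2.15 and 2.05 kb, with a log2 change of 0.17 ± 0.21 (adjusted p = 0.585). TEAD3 lies on chr6:35441374-35464856 on the minus strand, and its H3K27ac peaks covered 6.13 and 8.83 kb against 10.2 kb in each HCT15-FR library. That log2 change of 0.45 ± 0.16 did not pass (adjusted p = 0.0753). The window of TEAD3 also holds PPARD, FANCE, RPL10A and TULP1. Of its H3K27ac peaks, 4 and 5 in HCT15-Pa and 6 and 7 in HCT15-FR lay downstream of TEAD3. In H3K23su TEAD3 covered 5.51 and 6.28 kb against 7.17 and 6.86 kb, a log2 change of 0.23 ± 0.12 (adjusted p = 0.196). The TEAD factors thus did not share a direction, TEAD1 being lower in H3K23su and TEAD4 higher, with neither called in H3K27ac.

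Among the target genes, CCN2 had the fewest peaks and the largest H3K23su change. CCN2 lies on chr6:132269316-132272512 on the minus strand with no other protein-coding gene in its window. H3K23su covered 1.16 and 0.888 kb in HCT15-Pa and 2.90 and 1.85 kb in HCT15-FR, 2.32-fold apart, with a log2 change of 0.90 ± 0.26 (adjusted p = 0.0461). The call was lost after scaling (0.71, adjusted p = 0.131) and without HCT15-Pa library 2 (0.77, adjusted p = 0.0947) or HCT15-FR library 1 (0.63, adjusted p = 0.262). H3K27ac covered 0.810 and 1.21 kb against 1.73 and 1.37 kb, with a log2 change of 0.45 ± 0.23 (adjusted p = 0.194). These values rest on 1 to 4 peaks per library.

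CCN1 lies on chr1:86046444-86050272 on the plus strand, beside DDAH1. Its H3K27ac peaks covered 4.28 and 4.27 kb in HCT15-Pa and 5.64 and 5.80 kb in HCT15-FR, a log2 change of 0.38 ± 0.12 that did not pass (adjusted p = 0.0576). H3K23su covered 4.67 and 4.74 kb against 5.60 and 6.39 kb, a log2 change of 0.32 ± 0.13 (adjusted p = 0.120). The lines did not overlap in either mark. ANKRD1 lies on chr10:92671853-92680844 on the minus strand, and H3K27ac covered 3.39 and 3.97 kb against 5.96 and 5.16 kb. The log2 change was 0.54 ± 0.15 (adjusted p = 0.0366), which scaling lowered to 0.31 (adjusted p = 0.209). Leaving out HCT15-Pa library 1 or either HCT15-FR library also ended the call (adjusted p from 0.0675 to 0.192). H3K23su at ANKRD1 covered 4.42 and 3.93 kb against 4.92 and 4.68 kb, a log2 change of 0.18 ± 0.14. The window of ANKRD1 also holds RPP30.

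AMOTL2 lies on chr3:134074189-134094321 on the minus strand and was the target gene with less coverage in HCT15-FR. H3K27ac covered 7.40 and 7.63 kb in HCT15-Pa and 5.77 and 5.20 kb in HCT15-FR. The log2 change was -0.42 ± 0.11 (adjusted p = 0.0320), and -0.65 after scaling (adjusted p = 0.0116). The unscaled call was lost without HCT15-Pa library 2 or either HCT15-FR library (adjusted p from 0.0659 to 0.163) and with a flank of 10 kb (-0.35, adjusted p = 0.108). At the TSS itself H3K27ac covered 2219 and 2429 bp against 2393 and 2402 bp, so the lines overlapped there and the lower coverage lay away from the TSS. H3K23su covered 4.35 and 6.36 kb against 3.62 and 5.27 kb over the window, with a log2 change of -0.24 ± 0.23 (adjusted p = 0.458).

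The change of each gene was also compared between the marks in 1 fit over all 8 libraries. None of the 10 genes and none of 18215 genes was called by limma, while 2402 genes and 3 of the 10 had an unadjusted p under 0.05. The change of WWTR1 was larger in H3K27ac than in H3K23su by 0.49 ± 0.17 on the log2 scale (adjusted p = 0.25, limma). The change of TEAD2 was smaller in H3K27ac by -0.64 ± 0.26 (adjusted p = 0.313, limma), and that of TEAD4 by -0.48 ± 0.18 (adjusted p = 0.286, limma). A difference between H3K23su and H3K27ac at these genes was therefore not shown.

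For each mark, overlapping or adjacent peaks of the 4 libraries were joined into regions. A region is called FR-only where both libraries of HCT15-FR and none of HCT15-Pa had a peak in it, Pa-only in the opposite case, and shared where all 4 had one. The windows of the 10 genes held 213 H3K23su regions, of which 11 were FR-only, 8 Pa-only and 49 shared. These are 5.16%, 3.76% and 23%, against 7.95%, 5.01% and 23.9% of all H3K23su regions. They held 203 H3K27ac regions, of which 21 were FR-only, 7 Pa-only and 52 shared, or 10.3%, 3.45% and 25.6% against 9.08%, 4.53% and 25.2% of all. Regions found in 1 library only numbered 100 and 85. With 1 library left out the classes need fewer libraries, so the counts rose. H3K23su FR-only regions then numbered 18 and 23 without HCT15-Pa library 1 or 2, and 40 and 33 without HCT15-FR library 1 or 2. H3K27ac FR-only regions numbered 44 and 42 without HCT15-FR library 1 or 2. Pa-only regions numbered 37 and 35 in H3K23su, and 25 and 37 in H3K27ac, without HCT15-Pa library 1 or 2. They numbered 14 in H3K23su without HCT15-FR library 2 and 12 in H3K27ac without HCT15-FR library 1.

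The FR-only regions gathered at WWTR1. It held 5 of the 11 in H3K23su and 11 of the 21 in H3K27ac, all in its introns, while it held no Pa-only region in H3K23su and 1 in H3K27ac. Of the 5 in H3K23su, 4 overlapped an FR-only region of H3K27ac. They were chr3:149252366-149252941, chr3:149260057-149260715 and chr3:149265886-149266474, which lie 109.6 to 123.2 kb downstream of the TSS, and chr3:149395851-149396482, which lies 20.4 kb upstream of the canonical TSS. Those 109.6 to 123.2 kb downstream lie nearer to the TSS of TM4SF4, at 60170 to 73696 bp from it. Which gene they act on was not tested. Ranked by the lower of the percentiles in the 2 libraries that have it, as for all regions called strongest here, the strongest was chr3:149265736-149266588 in H3K27ac, at percentiles 88.1 and 86.8 of the 2 HCT15-FR lists, and 89.0 and 58.5 in its H3K23su counterpart. It is the WWTR1 intron whose middle is printed above with 1 TEAD core. The H3K27ac counterpart of the region 20.4 kb upstream, chr3:149395991-149396682, was at percentiles 72.9 and 85.2. In H3K23su the strongest was chr3:149395851-149396482, at percentiles 63.5 and 63.0. The lower percentile of the 11 H3K27ac regions ran from 3.86 to 86.8. The Pa-only H3K27ac region, chr3:149322101-149323054, was at percentiles 33.1 and 34.4 of the HCT15-Pa lists and overlapped a shared region of H3K23su.

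**Figure D4:**
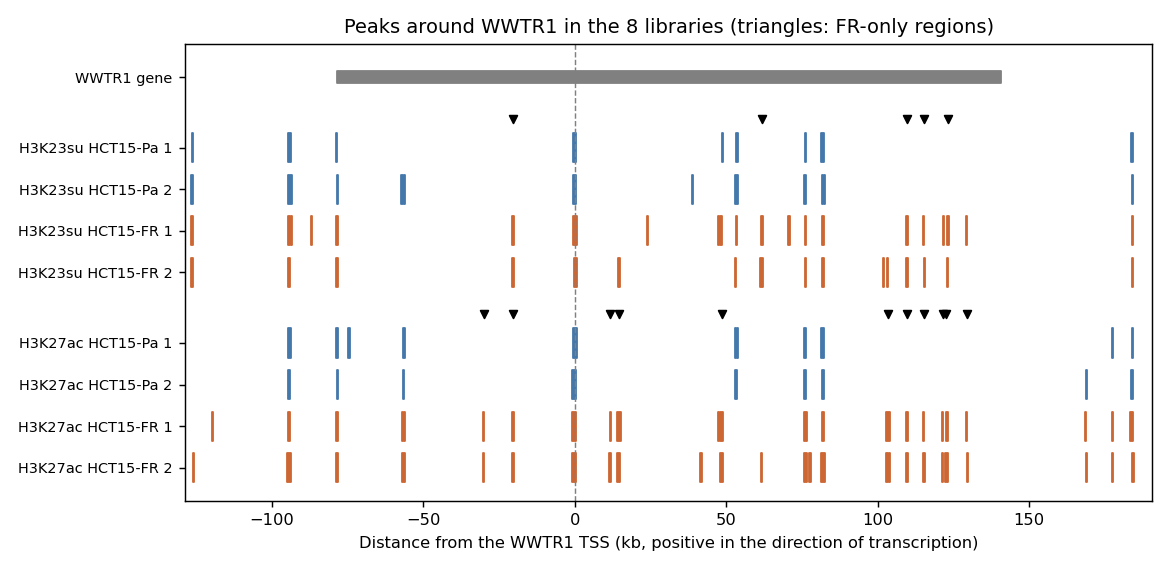
Peaks around WWTR1 in the 8 libraries by distance from the canonical TSS (kb, positive in the direction of transcription), blue for HCT15-Pa and orange for HCT15-FR; the grey bar is the gene and each triangle an FR-only region of the mark below it. From 103.4 to 129.5 kb the HCT15-FR libraries have peaks and the HCT15-Pa libraries have none, and the peaks at the TSS are present in all 8.

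The other genes had few such regions. YAP1 held 1 region that was FR-only in both marks, in an intron at chr11:102049000-102049270 in H3K23su and chr11:102048695-102049339 in H3K27ac, at percentiles 1.6 and 15.8 against 62.5 and 55.7 of the HCT15-FR lists. Its strongest FR-only H3K23su region was chr11:102001286-102001734, at 38.5 and 16.7, and its Pa-only H3K23su region was chr11:102061248-102062024, at 37.1 and 67.0 of the HCT15-Pa lists. Upstream of CCN2 a pair of adjacent FR-only regions lay 7.1 kb from the TSS in H3K23su (chr6:132279331-132279919) and 7.8 kb from it in H3K27ac (chr6:132279947-132280598), which did not overlap. They were at percentiles 56.3 and 16.2, and 58.3 and 66.4. The first holds the 2 TEAD cores printed above. Within it the H3K23su peak of HCT15-FR library 2 overlapped the printed bases, that of HCT15-FR library 1 ended 91 bp short of them, and HCT15-Pa library 1 had its nearest H3K23su peak 320 bp away. CCN1 had 1 FR-only H3K27ac region, chr1:86016568-86017148, in an intron of DDAH1, with its midpoint at -29.6 kb from the TSS, at percentiles 83.4 and 82.6. It overlapped a shared region of H3K23su. ANKRD1 had 1 in each mark, chr10:92728233-92729260 in H3K23su at percentiles 26.6 and 63.9, and chr10:92646997-92647604 in H3K27ac, in an intron of RPP30, at 39.8 and 22.5.

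TEAD1 held regions of both classes, with 2 FR-only and 4 Pa-only in H3K23su, all in introns, and 3 of each in H3K27ac, where 1 of each class lay at an exon of TEAD1. Its strongest FR-only H3K27ac region, chr11:12885973-12886779, is the one at an exon, was at percentiles 77.1 and 57.3 and holds a TEAD core. Its strongest FR-only H3K23su region was chr11:12723522-12723805, at 24.5 and 10.2. Its strongest Pa-only regions were chr11:12709340-12709741 in H3K23su, at 42.6 and 51.8, which holds a TEAD core, and chr11:12718289-12718689 in H3K27ac, at 58.3 and 43.1. TEAD3 held neither class in either mark. TEAD2 held 1 Pa-only H3K27ac region, chr19:49842642-49843058 at a UTR of CD37, at percentiles 1.93 and 35.2. TEAD4 held 1 FR-only H3K27ac region in its intron, chr12:3073067-3073467, at 39.5 and 34.4, and 1 Pa-only in an intron of TSPAN9, chr12:3194603-3195301, at 21.1 and 28.2. AMOTL2 held 3 of the 8 Pa-only H3K23su regions, all downstream of the gene in intergenic sequence. The strongest, chr3:134034591-134034789, was 58.6 kb from the TSS and at percentiles 96.6 and 86.4 of the HCT15-Pa lists. In H3K27ac AMOTL2 held 1 region of each class in the same intergenic sequence. The Pa-only one, chr3:134045718-134046200, was at 52.7 and 43.0, and the FR-only one, chr3:134039571-134039924, was at 74.0 and 46.6 and holds a TEAD core. No Pa-only region of 1 mark overlapped a Pa-only region of the other.

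**Figure D5:**
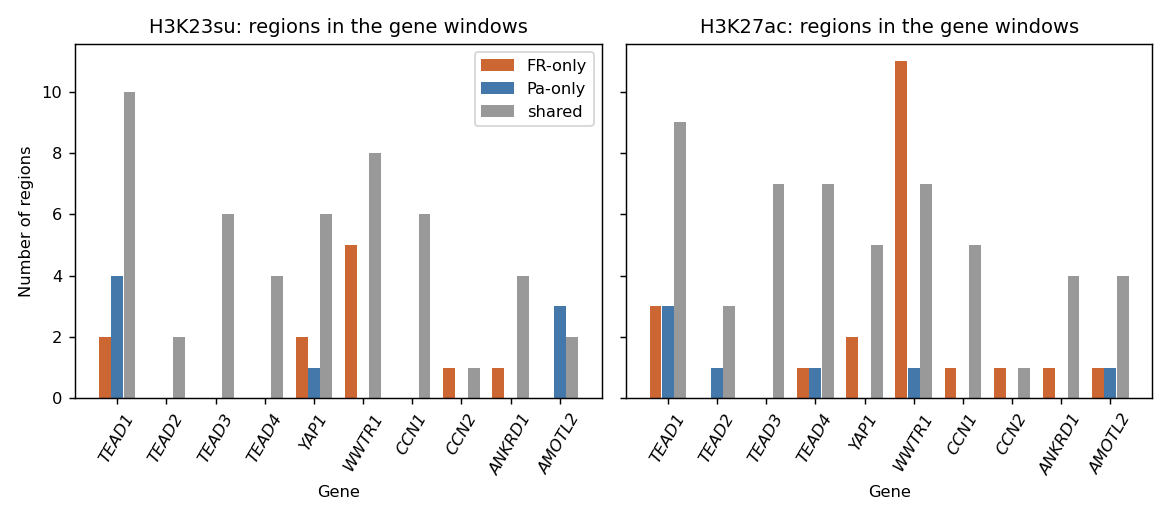
Number of FR-only (orange), Pa-only (blue) and shared (grey) regions in the windows of the 10 genes, in H3K23su (left) and H3K27ac (right). WWTR1 has the most FR-only regions in both marks, 5 and 11, and TEAD1 the most Pa-only regions, 4 and 3.

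TEAD cores were then counted within 200 bp of the middle of each region. In the shared regions of the 10 windows they occurred in 15 of 49 (30.6%) in H3K23su and 21 of 52 (40.4%) in H3K27ac, against 21.5% and 21.6% of all shared regions. In the FR-only regions they occurred in 1 of 11 and 3 of 21, against 24% of all FR-only regions in both marks. In the Pa-only regions they occurred in 4 of 8 and 1 of 7, against 24% and 24.4%. With whole regions searched instead, the counts were 25 of 49 shared, 2 of 11 FR-only and 2 of 8 Pa-only in H3K23su, and 31 of 52, 4 of 21 and 1 of 7 in H3K27ac. Over all shared, FR-only and Pa-only regions the shares were then 47.6%, 31.8% and 30.5% in H3K23su and 47.3%, 32.8% and 30.8% in H3K27ac. The shared regions of the 10 windows, at 51.0% and 59.6%, thus lay nearer to all shared regions in both marks than they did within 200 bp. In both searches the FR-only share of the 10 windows lay below that of all FR-only regions, on few regions and with no test. The longer TEAD4 consensus of HOMER matched 1 FR-only region of each mark, both at the printed WWTR1 intron, and 0 and 2 shared regions. The AP-1 site TGACTCA occurred in 2 of 11 and 4 of 21 FR-only regions, against 21.0% and 24.1% of all FR-only regions. Cores in shared TSS regions include those at YAP1, WWTR1 and AMOTL2, given here with the flanking hg19 bases of the plus strand.
YAP1, chr11:101981007-101981030: gagtgtgcaGGAATGtagcaactt
WWTR1, chr3:149376064-149376087: ctgcatctgCATTCCtttgagttt
AMOTL2, chr3:134093344-134093367: gctatgccaGGAATGtgagagttt
Counted from the TSS, with negative values upstream, the YAP1 core lies at -160 bp, the WWTR1 core at -263 bp and the AMOTL2 core at -66 bp, the last in an exon of another AMOTL2 transcript. The AMOTL2 site matched the HOMER consensus as well.

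Around the members stand the kinases and regulators of the Hippo pathway. Of 19 such genes, 1 rose and 1 fell in H3K23su, and 5 rose and 1 fell in H3K27ac. Of all genes tested 20.6% rose and 3.65% fell in H3K23su and 19.6% and 4.10% in H3K27ac, so the 5 of 19 were near the background. The list had median log2 changes of 0.17 and 0.24 beside 0.24 and 0.18 over all genes, which scaling turned to -0.05 and 0.02. FRMD6, an upstream activator of the pathway, fell in both marks, with log2 changes of -1.56 in H3K23su and -1.03 in H3K27ac (adjusted p = 0.0147 and 0.0127). Its H3K23su peaks covered 6034 and 4619 bp in HCT15-Pa and 2103 and 978 bp in HCT15-FR. STK3 (MST2), one of the core kinases of the pathway, rose by 1.05 in H3K27ac (adjusted p = 0.00224), from 3765 and 4018 bp to 8647 and 8507 bp. AMOTL1, which like AMOTL2 binds YAP1, rose by 0.86 in H3K27ac (adjusted p = 0.00964), and TAOK3, a kinase upstream of STK3, by 0.75 (adjusted p = 0.00415). TP53BP2 rose by 0.61 in H3K23su and 0.49 in H3K27ac (limma adjusted p = 0.0173 and 0.0423). After scaling FRMD6 was called lower in both marks and STK3, AMOTL1 and TAOK3 higher in H3K27ac. TP53BP2 was then called in neither mark (0.37 and 0.26, limma adjusted p = 0.105 and 0.246).

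Of 17 further genes known as YAP1, TAZ and TEAD targets, 6 were called higher in covered length and none lower in each mark. Of all genes tested 20.6% and 19.6% rose and 3.65% and 4.10% fell. The median log2 changes were 0.38 in H3K23su and 0.23 in H3K27ac, beside 0.24 and 0.18 over all genes. Scaling turned the medians of the list to 0.14 and -0.00187. At the TSS, 2 of the 17 had a peak in both HCT15-Pa libraries only in H3K23su and 1 in H3K27ac. Over all protein-coding genes these shares were 1.72% and 2.19%. None of the 17 had a TSS peak in both HCT15-FR libraries only, against 1.86% and 1.42%. These are few genes, and the counts were not tested. CCDC80, an extracellular matrix protein, covered 2640 and 2404 bp in HCT15-Pa and 6154 and 6245 bp in HCT15-FR in H3K27ac, a log2 change of 1.15 ± 0.14 (adjusted p = 0.00292), and rose by 0.75 in H3K23su (adjusted p = 0.0249). CRIM1, a transmembrane protein that binds bone morphogenetic proteins, rose by 0.57 in H3K23su and 0.79 in H3K27ac (adjusted p = 0.0276 and 0.00230). ASAP1, a GTPase-activating protein for ARF, rose by 0.78 and 0.75 (adjusted p = 0.00625 and 0.0154). GADD45A, a stress-induced gene, rose by 0.67 in H3K23su and 0.57 in H3K27ac (limma adjusted p = 0.0328 and 0.0166). PTPN14, a phosphatase that binds YAP1, rose by 0.46 and 0.60 (limma adjusted p = 0.0236 and 0.00454). After scaling ASAP1 in H3K23su and CCDC80, CRIM1 and PTPN14 in H3K27ac were still called higher, and the other named changes were not (limma adjusted p from 0.0689 to 0.204).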

How the data were processed

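Peak lists were deposited for 8 CUT&Tag libraries, 4 per mark, with 2 libraries for each line. Per the methods of the study, the authors aligned reads to hg19 with Bowtie2, removed duplicates with SAMtools and called peaks in each library with MACS2, with the broad option for H3K27ac. The score deposited with each peak was the −log10 of the MACS2 p value, and it was used only to rank peaks within a list. Gene models were those of GENCODE release 44 mapped to GRCh37, with the TSS of the canonical transcript. Sequence came from GRCh37, and no peak ended beyond a chromosome of it.

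For each protein-coding gene, log2(covered bp + 500) over the gene body and 50 kb either side was compared between lines in limma with a mean trend, in genes covered in at least 2 of the 4 libraries of a mark, with Benjamini-Hochberg adjustment over all genes tested and a threshold of 0.05. Windows of neighbouring genes share peaks. Log2 changes are on this scale, which understates those of genes with little coverage. Ratios and fold differences are of mean covered length, without the 500 bp added. A library counted as having a region if 1 of its peaks overlapped it by 1 bp. Motif counts were exact matches within 200 bp of a region's midpoint, and the upstream 300 bases were added after the data were examined. The members and lists were chosen with earlier results of these data known. All 10 members are named, and other pathway genes only where called, at most the 4 largest changes per list and mark. A pathway gene named in this way is given in each mark where it was called. Positions are given for regions FR-only or Pa-only in both marks, and for the highest in rank of each gene, class and mark, by the lower percentile of the libraries that have it.

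Tested on simulated data made from the libraries, limma recovered 68 of 100 H3K23su genes at a log2 change of 1 and 94 of 100 at 2, of 18280 genes, and 86 and 98 of 100 H3K27ac genes, of 18905. Among unchanged genes 10 and 7 were called. The simulation gave genes of similar coverage the same spread and had no shift between lines in unchanged genes. It held no change smaller than 1, so recovery of smaller changes is not known. The alternatives were other pseudocounts, flanks, list lengths, scaling, gene sets and filters, a replicate block, and each library left out in turn. PECAM1 was not analysed here. Tools were R 4.3.3, limma 3.58.1, Python 3.11.15, pandas 2.3.3, scipy 1.17.1, pysam 0.24.0, samtools 1.23.1 and matplotlib 3.10.9.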

Additional observations from a re-analysis of the deposited data

How the results depend on the processing

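Of 130 member changes recomputed under the alternatives in each mark, 95 in H3K23su and 99 in H3K27ac kept their direction and their side of the threshold, 28 and 21 lost a call, 0 and 3 gained one and 7 and 7 turned sign. None of the changes that turned sign had been called. All 10 genes had a TSS peak in all libraries of a mark under each alternative except the stronger 50% of each list, where 9 had one in each mark. Causes of the differences were not tested. The lists hold no depth, so a peak near the threshold can come or go with it.

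Scaling by total covered length turned the H3K23su total over all windows to -1.54 kb and the changes of TEAD2, TEAD3 and ANKRD1 in H3K23su to -0.0356, -0.00217 and -0.0469. With a flank of 10 kb ANKRD1 was -0.11 and AMOTL2 0.19 in H3K23su, TEAD4 was 0.0902 in H3K27ac, and the difference between marks was -0.0136 for TEAD3 and -0.0169 for CCN1. With the stronger 50% of each list TEAD1 was 0.29 and CCN2 -0.00888 in H3K27ac, and the difference between marks was -0.31 for CCN1 and 0.0412 for AMOTL2. With 1 library left out, AMOTL2 ran from -0.49 to 0.00764 in H3K23su, TEAD1 from -0.16 to 0.11 and TEAD4 from -0.14 to 0.0837 in H3K27ac, and the difference between marks from -0.43 to 0.0714 for AMOTL2, -0.0309 to 0.32 for YAP1, -0.0231 to 0.15 for CCN1 and -0.0337 to 0.46 for TEAD3.

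Genes called higher and lower in H3K23su (3760 and 668) numbered 1327 and 387 with a flank of 10 kb, 1353 and 223 with the stronger 50%, 778 and 734 scaled, 581 and 246 with no filter, and 7041 and 2434 over all genes of the annotation. In H3K27ac (3697 and 775) they numbered 1460 and 376, 2148 and 504, 1178 and 1238, 824 and 242, and 7917 and 2795. With 1 library left out they ran from 1675 to 3855 higher and 294 to 390 lower in H3K23su, the fewest higher without HCT15-FR library 1, and from 1373 to 4191 and 364 to 624 in H3K27ac, the fewest without HCT15-FR library 2. For the difference between marks, where none was called, 6 and 4 genes were called with a pseudocount of 100 bp, 15 and 54 with the stronger 50%, and 0 to 2 and 0 to 10 with 1 library left out.

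Same-numbered libraries of the lines did not deviate together (r = 0.00153 for H3K23su and 0.0197 for H3K27ac, across genes). This does not show how the libraries were prepared, so whether their numbers pair them is not known. The replicate block gave 4648 and 762 calls in H3K23su and 3504 and 759 in H3K27ac, and of the member calls ended that of ANKRD1 in H3K27ac (0.54, adjusted p = 0.0503, limma). The block left the totals over all windows at 9.04 and 13.9 kb.

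Requiring 50% of a region to be covered gave 17 FR-only and 23 shared H3K23su regions and 30 shared H3K27ac regions. The stronger 50% of each list gave 22 shared H3K23su regions, and 33 shared and 3 Pa-only H3K27ac regions. With 1 library left out FR-only regions ran from 18 to 40 and from 28 to 44, and Pa-only regions from 12 to 37 and from 9 to 37. Shared, FR-only and Pa-only regions with a TEAD motif numbered 0, 1 and 0 in H3K23su and 2, 1 and 0 in H3K27ac with the HOMER consensus, 25, 2 and 2 in H3K23su with whole regions, and 7, 1 and 1 in H3K23su and 10, 2 and 0 in H3K27ac within 100 bp of the midpoint.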
